A study of Drosophila melanogaster with 14 samples.

Results

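The study used 2 fly lines as controls, and the question here is how far the flight muscle of the Tet-GFP line differed from that of the wild-type line. The comparison takes all 4 RNA-seq libraries of these lines, of 14 libraries in the series: 2 of Tet-GFP and 2 of wild-type indirect flight muscle (IFM), named by the numbers in the table's columns as Tet-GFP 1 and 3 and wild-type 1 and 2. Of 17890 genes in the IFM table, 8156 had a mean of at least 0.5 RPKM (reads scaled by transcript length and library size) over these 4 libraries and were tested. In the Tet-GFP line, GFP was knocked in at the end of the Tet gene, in frame with all isoforms, and the catalytic dead line Tet CD was made in it. The wild type was w1118, written w11118 in the sample labels, and served as the control of the Tet null mutant. Muscle fibres came from thoraxes of pupae at 96 h after puparium formation (APF). The sources used here do not give the sex of the pupae, the number pooled per library, or whether the lines were brought into a common genetic background.

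TET proteins are dioxygenases that oxidise methyl groups, and the Drosophila enzyme is known to form 5-hydroxymethylcytosine in RNA. The IFM are fibrillar muscles that fill much of the thorax and power flight. Shortly before eclosion their myofibrils are nearly mature, while the epidermis, tendon cells and tracheae around them are making the adult cuticle. A knock-in line and a laboratory wild type may differ at the tagged gene, at the marker genes used to build the line, and at unlinked loci where their founders carried different alleles.

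The libraries held 41.3 and 41.4 M reads on genes in Tet-GFP and 42.4 and 33.3 M in wild type, as estimated from the spacing of the low values. The scale found from that spacing was 38.59 and 40.15 M in Tet-GFP and 37.95 and 35.74 M in wild type. It thus differed from the reads on genes. By this scale 1 read on a 1-kb gene was worth between 0.0249 and 0.0280 RPKM. The defining flight muscle genes were abundant in all 4: Act88F, the flight muscle actin, had 17290 and 14610 RPKM in Tet-GFP and 14670 and 16480 RPKM in wild type, and salm, the selector gene of fibrillar muscle, had 36.1 and 31.0 RPKM in Tet-GFP and 34.2 and 40.4 RPKM in wild type. Over the 8344 genes compared among all IFM libraries, the root mean square difference in log2(RPKM + 0.5) was 0.765 between both Tet-GFP libraries and 0.671 between both wild-type libraries. Between the lines it was 0.764 for Tet-GFP 1 and wild-type 1, 0.703 for Tet-GFP 1 and wild-type 2, 1.12 for Tet-GFP 3 and wild-type 1, and 0.870 for Tet-GFP 3 and wild-type 2. Tet-GFP 1 was thus as close to the wild-type libraries as to its own replicate. Tet-GFP 1 was nearer to Tet CD 1 (0.60), and Tet-GFP 3 to Tet CD 3 (0.612), than either was to the other Tet-GFP library. The share of reads on mt:lrRNA, the large ribosomal RNA of the mitochondrion, was 17.6% in each Tet-GFP library, against 19.7% and 7.82% in wild-type 1 and 2.

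Tet itself (3L:2786207-2879158, minus strand, dm6) was detected in both lines. It had 3.96 and 3.66 RPKM in Tet-GFP, against 2.04 and 3.01 RPKM in wild type, which came from 2114 and 2030 reads against 1072 and 1488. The groups did not overlap, but the difference was within the error of the test (log2 fold change 0.53, SE 0.22, unadjusted p = 0.0793, adjusted p = 0.538, limma with Benjamini-Hochberg adjustment over 8156 genes). Tet CD, which carries the same tag, had 4.19 and 3.77 RPKM, and Tet null had 0.405 and 0.220 RPKM.

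Of 9 eye pigment genes 4 were tested, with a median log2 fold change of 0.07, and 1 of them, v, was past an unadjusted p under 0.05 and a fold change over 1.5 (9.07% of all genes tested, in either direction). The others tested, car, pr and ry, overlapped between the lines. The genes w and bw were too low for the test and differed in opposite directions. The w gene encodes the ABC transporter that carries pigment precursors into the eye and is deleted in part in w1118. It had 0.187 and 0.233 RPKM in Tet-GFP (17 and 22 reads), against 0.0224 and 0.0357 RPKM in wild type (2 and 3 reads). The gene bw, for its partner in the transport of red pigment precursors, had 6 and 11 reads in Tet-GFP, against 32 and 26 in wild type. For w, Tet CD resembled Tet-GFP at 0.214 and 0.171 RPKM, and Tet null had 0.711 and 1.09 RPKM. The v gene (X:10923972-10925631) encodes tryptophan 2,3-dioxygenase, which opens the path from tryptophan to the brown eye pigment. It had 3.59 and 7.63 RPKM in Tet-GFP, against 0.182 and 0.407 RPKM in wild type (log2 fold change 2.88, SE 0.41, unadjusted p = 0.00238, adjusted p = 0.239, limma). In Tet CD and Tet null it lay between 0.125 and 0.164 RPKM, so that Tet-GFP was the line that stood apart. KFase, kynurenine formamidase, which acts on the product of v, was also higher, at 2.79 and 2.30 RPKM in Tet-GFP against 1.10 and 1.05 RPKM in wild type (log2 fold change 0.95, SE 0.17, unadjusted p = 0.00530, adjusted p = 0.287, limma). The next enzyme of that path, encoded by cn, had 0.145 and 0 RPKM in Tet-GFP and 0.221 and 0.203 RPKM in wild type and was not tested.

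No gene combined a fold change over 1.5 with an adjusted p under 0.05, the threshold for a call (0.0% of 8156 genes in either direction). The smallest adjusted p by limma was 0.104, and 843 genes (10.3%) had an unadjusted p under 0.05. With the fold change over 1.5 added, 324 genes (3.97%) were higher and 416 (5.1%) lower in Tet-GFP, 740 in all (9.07%), and this unadjusted limit is the one used for the gene groups that follow. Counts for a group are to be read beside these shares. The count of higher genes rested on single libraries: it was 557 without Tet-GFP 1 and 151 without wild-type 1. Both Tet-GFP values lay above both wild-type values in 1677 genes (20.6%) and below them in 1825 (22.4%). Because nothing in the labels says that replicates came from separate animals or dissections, p-values measure the spread between these libraries only.

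Other treatments of the values did make calls. When the spread was estimated from all 4 IFM groups together, 10 genes were higher (0.123%) and 11 lower (0.135%) at the threshold for a call, and 1059 had an unadjusted p under 0.05. With limma's voom on the reads recovered from the RPKM values, an alternative chosen after the data had been seen, 0 were higher and 6 lower (0.0737% of 8138 genes), and 620 had an unadjusted p under 0.05. Over all genes tested the median log2 fold change was −0.02. In the plot of fold change against level, small structured RNAs made up most of the genes far above 0 and cuticle-type genes many of those far below it. Exceptions were lncRNA:CR40469 above 0 and CG1208, MtnC and scaRNA:MeU2-48 below it.

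**Figure D1:**
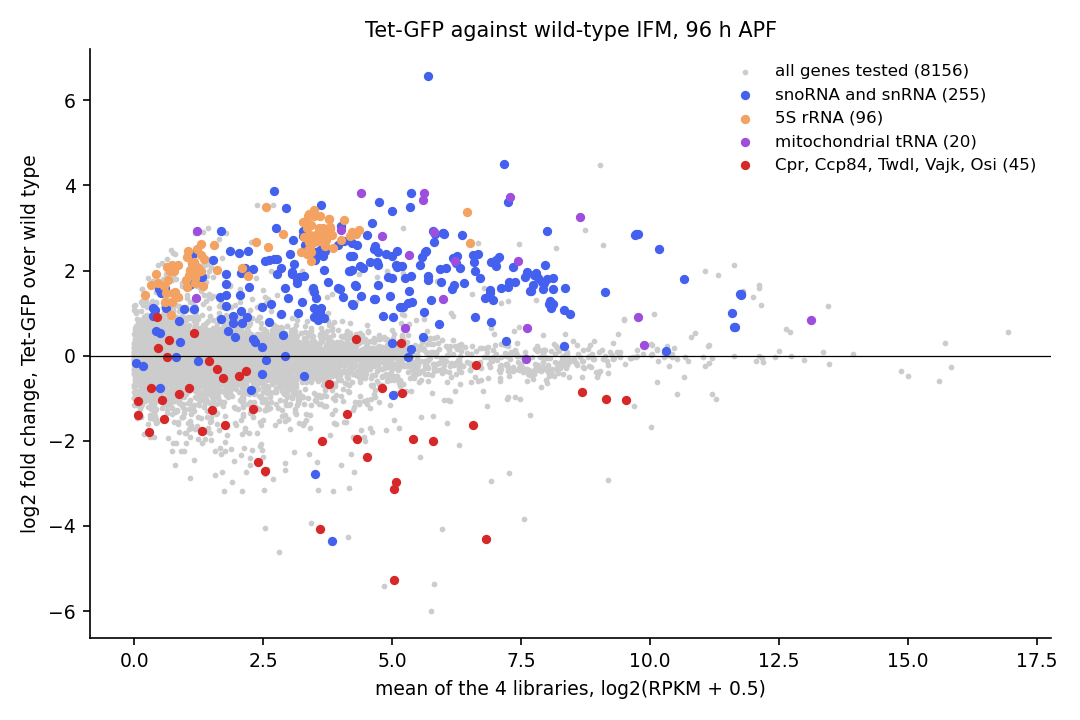
Log2 fold change of Tet-GFP over wild-type IFM (y axis) against the mean log2(RPKM + 0.5) of the 4 libraries (x axis), with a point for each of 8156 genes. Of 255 snoRNA and snRNA, 96 5S rRNA and 20 mitochondrial tRNA genes most lie above 0, and 39 of 45 Cpr, Ccp84, Twdl, Vajk and Osi genes lie below it.

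The genes lowest in Tet-GFP were mostly genes of the cuticle or of unknown function that followed them across libraries. CG14147 (3L:10972648-10973476) had 0.851 and 1.47 RPKM in Tet-GFP and 91.5 and 119 RPKM in wild type. CG32548 (X:18435719-18440581) had 0.599 and 1.08 RPKM in Tet-GFP and 59.1 and 51.9 RPKM in wild type. Both of these genes passed the threshold with voom (adjusted p = 0.0349 each, limma). Cpr64Ab, a protein of the chitin-binding Rebers and Riddiford family, had 0.751 and 1.49 RPKM in Tet-GFP, against 43.2 and 84.7 RPKM in wild type (log2 fold change −5.27, SE 0.45, adjusted p = 0.118, limma). Twdlbeta, of the Tweedle family of cuticle proteins, had 7.89 and 13.7 RPKM in Tet-GFP, against 220 and 210 RPKM in wild type (log2 fold change −4.30, SE 0.32), and it too passed with voom (adjusted p = 0.0349, limma). In each of these genes no Tet-GFP library came near a wild-type library.

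In the other 2 IFM groups the levels of these genes split within a line. Cpr64Ab had 2.58 and 58.9 RPKM in Tet CD 1 and 3, and 1.59 and 0.479 RPKM in Tet null. Twdlbeta had 7.05 and 120 RPKM in Tet CD 1 and 3, and 7.87 and 4.24 RPKM in Tet null. Tet CD 3 was therefore at the level of wild type for Cpr64Ab, and below it but nearer to it than to Tet-GFP for Twdlbeta. Its replicate was near the level of Tet-GFP for both, so that the libraries of this line lay far apart. The same split was present in CG14147, CG32548, CG13049, CG15615, Vajk4, CG13048 and CG8192, and can be read from the plot of the 12 genes.

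**Figure D2:**
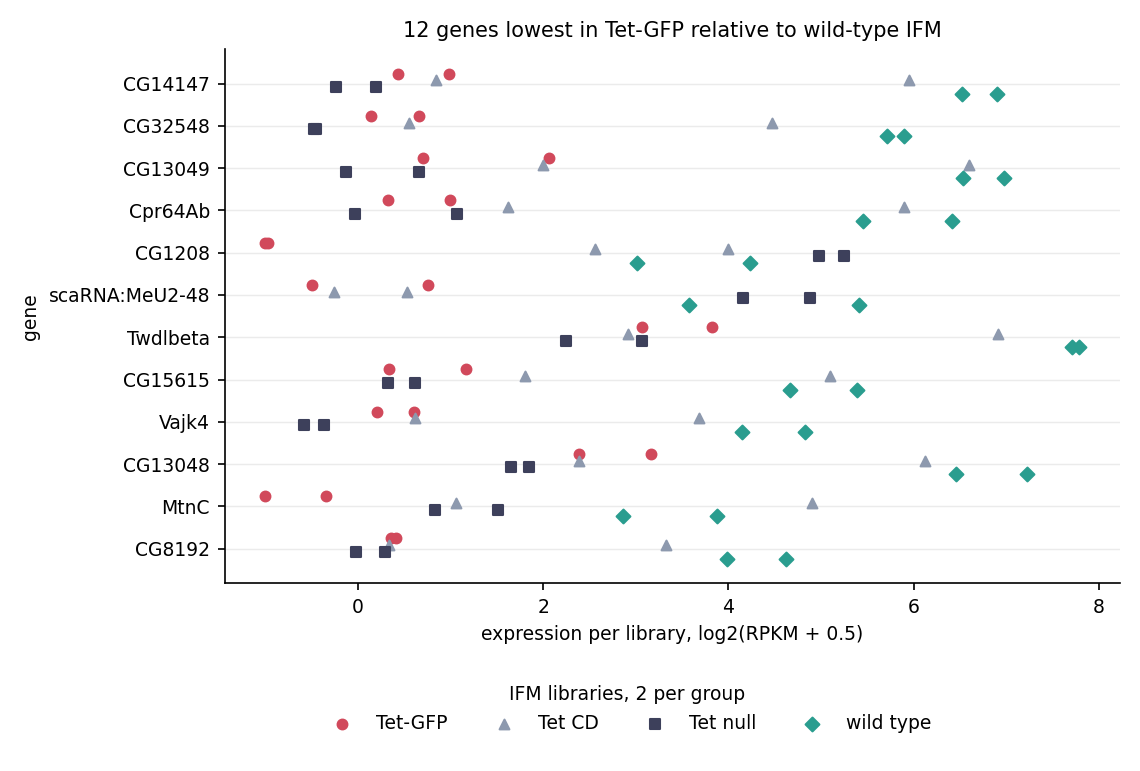
Log2(RPKM + 0.5) in each of the 8 IFM libraries (x axis) of the 12 genes lowest in Tet-GFP relative to wild type (y axis), in the order Tet-GFP, Tet CD, Tet null and wild type within each gene. In the 9 cuticle-type or uncharacterised genes CG14147, CG32548, CG13049, Cpr64Ab, Twdlbeta, CG15615, Vajk4, CG13048 and CG8192 one Tet CD library lies nearer to wild type and the other to Tet-GFP.

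The table held 131 cuticle protein genes, of which 43 were tested. Of the 43, 38 were lower in Tet-GFP, where 4222 of all 8156 genes tested were. Their median log2 fold change was −1.07, against −0.02 over all genes tested, and 13 were lower and 0 higher at the unadjusted limit, against 5.1% of all genes lower. The 35 members above the low-value limit in both lines had a median of −1.03, and over the 114 members with any value it was −0.16. The mean log2(RPKM + 0.5) of the 43 genes was 2.17 and 2.55 in Tet-GFP and 3.29 and 4.05 in wild type. It was 2.52 and 3.70 in Tet CD 1 and 3, and 1.87 and 1.68 in Tet null. In bulk muscle, fewer cuticle-forming cells and less RNA per such cell cannot be told apart. Without wild-type 1 the count of lower members was 24.

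Of the 13 lower members, 4 were the Vajk genes, which encode cuticular proteins. Vajk1 had 4.71 and 7.45 RPKM in Tet-GFP, against 42.6 and 73.9 RPKM in wild type (log2 fold change −3.14, SE 0.39). Vajk2 had 5.46 and 8.46 RPKM in Tet-GFP, against 38.3 and 37.4 RPKM in wild type (log2 fold change −2.39, SE 0.27), and Vajk3 had 6.75 and 8.76 RPKM against 31.9 and 30.9 RPKM (log2 fold change −1.96, SE 0.21). Outside that list, of the Osiris genes, an insect family of cuticle-secreting epithelia, 7 were tested and 3 were lower at the unadjusted limit (5.1% of all genes). The highest of these 3 was Osi15, with 6.96 and 7.30 RPKM in Tet-GFP and 65.3 and 52.9 RPKM in wild type (log2 fold change −2.96, SE 0.20), which passed with voom (adjusted p = 0.0380, limma). Osi15 had 4.12 and 22.6 RPKM in Tet CD 1 and 3 and 3.48 and 1.82 RPKM in Tet null.

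Genes of the tracheal system, whose tubes are lined with cuticle and run into the muscle, had lower values as well. All 7 were below wild type on average, 3 at the unadjusted limit (5.1% of all genes) and 6 without overlap (22.4% of all genes), with a median log2 fold change of −1.37. Without Tet-GFP 3 this median was −0.57. The FGF receptor gene btl had 0.451 and 0.596 RPKM in Tet-GFP, against 1.92 and 2.64 RPKM in wild type (log2 fold change −1.43, SE 0.22). The chitin deacetylase serp had 3.10 and 3.51 RPKM in Tet-GFP, against 8.22 and 13.5 RPKM in wild type (log2 fold change −1.54, SE 0.29), and its partner verm had 4.62 and 5.46 RPKM against 11.02 and 17.2 RPKM (log2 fold change −1.37, SE 0.28). The transcription factor trh, which sets tracheal identity, differed less, with 3.39 and 2.37 RPKM in Tet-GFP and 6.20 and 4.07 RPKM in wild type (log2 fold change −0.73, SE 0.29, unadjusted p = 0.0690, limma). In Tet CD 1 and 3, serp had 4.05 and 10.7 RPKM and verm had 6.87 and 13.3 RPKM, in the order seen for the cuticle proteins. Not all tracheal genes shared this split. In the same libraries pio had 20.1 and 9.15 RPKM, the reverse order, and Gasp had 56.3 and 73.7 RPKM, which lay closer together.

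Of 8 tendon and epidermis genes 4 were tested, and all 4 were below wild type without overlap, where 22.4% of all genes were (median log2 fold change −0.55). Tsp, thrombospondin, the matrix protein that joins muscle to tendon, had 1.12 and 1.58 RPKM in Tet-GFP, against 7.31 and 3.62 RPKM in wild type (log2 fold change −1.63, SE 0.38). The chitin synthase kkv had 0.468 and 0.839 RPKM in Tet-GFP, against 1.49 and 1.73 RPKM in wild type (log2 fold change −0.89, SE 0.24). The gene sr differed little, with 1.14 and 1.13 RPKM in Tet-GFP, against 1.47 and 1.17 RPKM in wild type (log2 fold change −0.15, SE 0.18). Among the members too low for the test, dy was higher without overlap (11 and 7 reads against 5 and 3), and m and knk were lower without overlap. The laccase stw, which tans the cuticle and stands in the pigment list, had 3.21 and 3.82 RPKM in Tet-GFP, against 7.05 and 9.05 RPKM in wild type (log2 fold change −1.08, SE 0.21). It was the only lower member of that list at the unadjusted limit, and y, which is needed for black pigment, was the only higher one, with 1.54 and 2.81 RPKM in Tet-GFP and 0.453 and 1.03 RPKM in wild type, over 12 tested genes with a median log2 fold change of −0.17.

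Not all of the lowest genes followed the cuticle. CG1208 had 1 and 0 reads in Tet-GFP, against 1733 and 677 in wild type (log2 fold change −4.61, SE 0.46, adjusted p = 0.169, limma), and 15.5 and 5.38 RPKM in Tet CD and 37.5 and 31.0 RPKM in Tet null. Tet-GFP was the only group of the 4 in which this gene was nearly silent. MtnC, a metallothionein, had 0.290 and 0 RPKM in Tet-GFP and 14.2 and 6.79 RPKM in wild type, and scaRNA:MeU2-48, a guide RNA for modification of the U2 snRNA that overlaps hfp, had 0.207 and 1.20 RPKM in Tet-GFP and 11.4 and 42.1 RPKM in wild type.

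Of the 12 genes highest in Tet-GFP relative to wild type, all but lncRNA:CR40469 were small structured RNAs, and each of the 12 was higher in Tet-GFP 3 than in Tet-GFP 1. The snoRNA genes, which guide the modification and cleavage of ribosomal RNA, had a median log2 fold change of 1.68 over 226 tested of 269 in the table, and 43 were higher and 2 lower at the unadjusted limit. The snRNA genes, whose RNAs mostly belong to the spliceosome, had a median of 2.38 over 29 tested of 32, with 14 higher (48.3%) and 0 lower. Without Tet-GFP 3 the medians were 0.89 for snoRNA and 1.59 for snRNA genes, without wild-type 1 they were 1.02 and 1.62, and without Tet-GFP 1 the snoRNA median was 2.54. The mean log2(RPKM + 0.5) of the snoRNA genes was 3.86 and 5.51 in Tet-GFP 1 and 3, and 2.38 and 3.72 in wild-type 1 and 2. Tet-GFP 1 and wild-type 2 were therefore close to each other. In Tet CD the same mean was 4.16 and 5.01, and in Tet null 2.61 and 3.21.

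**Figure D3:**
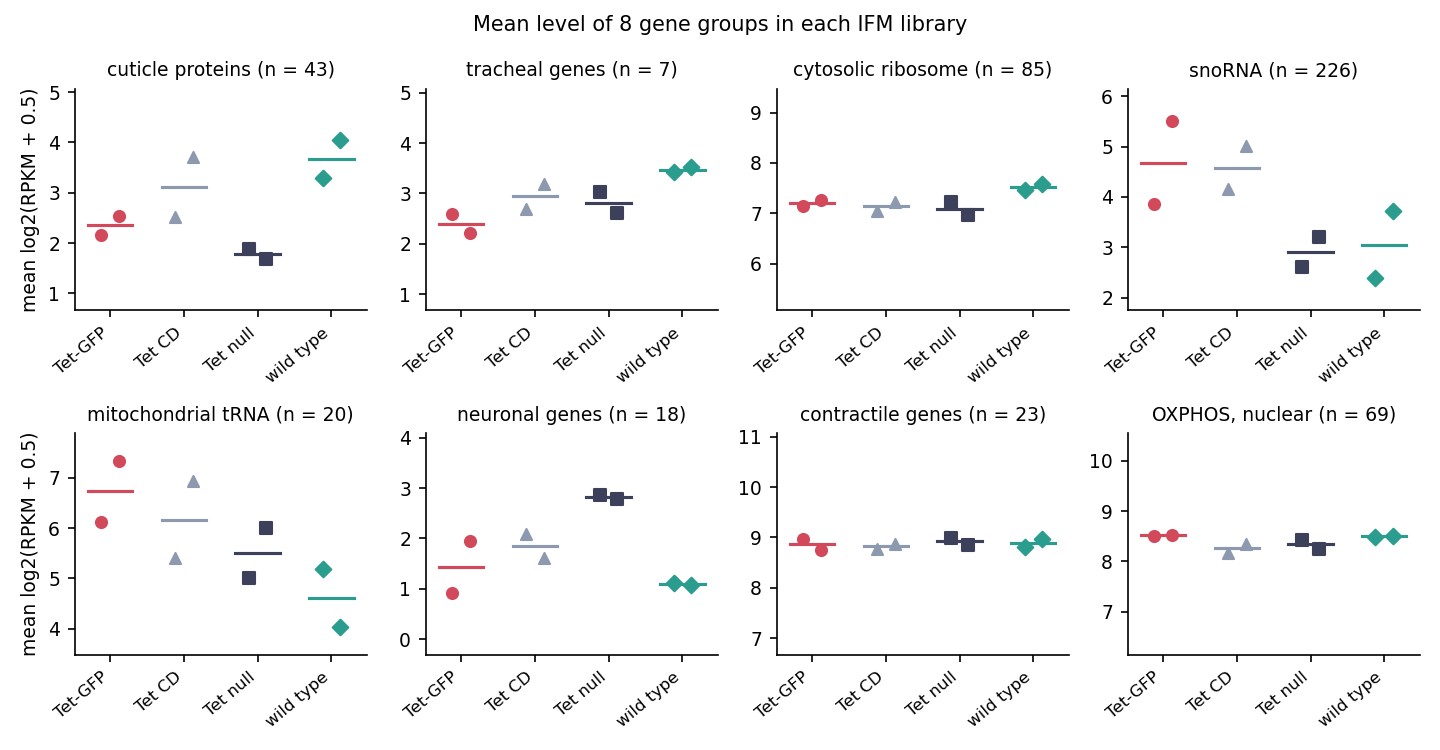
Mean log2(RPKM + 0.5) of 8 gene groups (panels, n tested genes) in each IFM library of Tet-GFP, Tet CD, Tet null and wild type (points), with the mean of each group of libraries as a line. The snoRNA mean runs from 3.86 to 5.51 within Tet-GFP and from 2.38 to 3.72 within wild type, and the cuticle mean from 2.52 to 3.70 within Tet CD. Over all 8 libraries the contractile mean runs from 8.75 to 8.99 and the OXPHOS mean from 8.17 to 8.52.

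Single genes showed how far the replicates of this class spread. The snoRNA gene snoRNA:Or-CD1 had 75.3 and 484 RPKM in Tet-GFP, against 6.71 and 9.50 RPKM in wild type (log2 fold change 4.50, SE 0.99, unadjusted p = 0.0109, adjusted p = 0.342, limma). snRNA:U6atac, of the minor spliceosome, had 11.8 and 88.3 RPKM in Tet-GFP, against 1.09 and 4.04 RPKM in wild type (log2 fold change 3.62, SE 1.17). snoRNA:U14:30Ea had 62.4 and 511 RPKM in Tet-GFP, against 8.13 and 24.9 RPKM in wild type. In all 3 the lower Tet-GFP value was still above the higher wild-type value. snoRNA:Me28S-G3255a had 6 and 76 reads in Tet-GFP and 0 in both wild-type libraries, at least 12.6-fold higher against a floor of 3 reads per library. Taking snoRNA, scaRNA and snRNA genes as a single list, 57 of 266 tested were higher at the unadjusted limit (21.4%, where 3.97% of all genes were). This count was 10 without wild-type 1, 27 without Tet-GFP 3 and 133 without Tet-GFP 1.

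The genes of 5S rRNA had the same direction, and those of nuclear tRNA were mixed. All 96 copies of the 5S rRNA gene were tested, with a median log2 fold change of 2.61. Only 60 were above the low-value limit in both lines, with a median of 2.83. The other copies passed the limit through Tet-GFP alone, where they were high. Of all 96, 71 were higher at the unadjusted limit (3.97% of all genes) and 0 lower, a count that includes such copies. The copies are near-identical, so that they share their reads and stand for about a single measurement. Their summed level was 576 and 2570 RPKM in Tet-GFP 1 and 3, against 88.4 and 220 RPKM in wild-type 1 and 2. Without wild-type 1, 2 of the 96 were higher, without wild-type 2, 15, without Tet-GFP 3, 40, and without Tet-GFP 1, all 96. The median was 1.73 without Tet-GFP 3. The tRNA genes of the nucleus had a median of 0.66 over 120 tested of 290, and of 0.14 over the 73 that were above the low-value limit in both lines. Their fold changes ran both ways, with 24 higher (20%) and 6 lower (5%), where 3.97% of all genes were higher and 5.1% lower. The median exon length was 136 bases for the snoRNA genes and 1878 bases over all genes tested. Whether this length has a part in the differences was not tested.

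The mitochondrial tRNA genes had a higher median than the messengers of the same genome. Of 22 tRNA genes 20 were tested, and 12 were higher at the unadjusted limit (3.97% of all genes) and 0 lower, with a median log2 fold change of 2.29. mt:tRNA:Ala had 35.9 and 145 RPKM in Tet-GFP, against 6.49 and 4.30 RPKM in wild type (log2 fold change 3.65, SE 0.76), and mt:tRNA:Val had 415 and 1034 RPKM in Tet-GFP, against 99.2 and 47.4 RPKM in wild type (log2 fold change 3.25, SE 0.63). Without wild-type 2, 3 of the 20 were higher. The summed level of the 22 tRNA genes ran from 13992 to 15414 RPKM in Tet-GFP and from 3831 to 15924 RPKM in wild type, and so overlapped between the lines. The 9 mitochondrial messengers had a median of −0.20, with 0 higher and 0 lower at that limit. Their log2 fold change was negative in 6 and positive in 3. On the lower side, mt:CoIII, a subunit of cytochrome oxidase, had 42040 and 36100 RPKM in Tet-GFP, against 73060 and 47520 RPKM in wild type (log2 fold change −0.60, SE 0.27). On the higher side, mt:ATPase8 had 5383 and 10390 RPKM in Tet-GFP, against 4779 and 4885 RPKM in wild type (log2 fold change 0.63, SE 0.37).

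The calls with the pooled spread included genes in which replicates were close, and others, such as v, in which they were further apart. In several of these Tet-GFP was the line apart. CG10340 (3R:16613398-16614391) had 14.3 and 14.5 RPKM in Tet-GFP, against 76.0 and 79.8 RPKM in wild type (log2 fold change −2.39, SE 0.17, adjusted p = 0.0268 with the pooled spread, limma). It had 66.8 and 78.8 RPKM in Tet CD and 72.8 and 55.2 RPKM in Tet null, close to wild type. The gene fal (3L:19294564-19298830) had 8.42 and 7.48 RPKM in Tet-GFP, against 2.47 and 2.28 RPKM in wild type, and between 1.60 and 2.70 RPKM in Tet CD and Tet null (log2 fold change 1.55, SE 0.16, adjusted p = 0.0380, limma).

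CG43175 was close to off outside Tet-GFP. It had 3.94 and 3.06 RPKM in Tet-GFP (104 and 84 reads), against 0.0771 and 0 RPKM in wild type (2 and 0 reads), 0 in both Tet CD libraries and 0.0940 and 0.179 RPKM in Tet null. The same held in the other direction for hpRNA:CR33940, a hairpin RNA that yields small interfering RNAs, with 0.102 and 0.0983 RPKM in Tet-GFP, against 1.41 and 1.24 RPKM in wild type and 1.27 to 1.67 RPKM in Tet CD and Tet null. TORIP, a torsin-interacting protein gene, had 0.170 and 0.184 RPKM in Tet-GFP, against 1.47 and 1.58 RPKM in wild type.

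In other genes the wild type stood apart from the other lines. CG11155 (4:1126602-1137919), in which Tet-GFP stood apart on the other side, had 4.16 and 4.03 RPKM in Tet-GFP, against 29.1 and 24.9 RPKM in wild type, and 8.90 to 9.88 RPKM in Tet CD and Tet null (log2 fold change −2.58, SE 0.18). It was called both with the pooled spread (adjusted p = 0.0116, limma) and with voom (adjusted p = 0.0434, limma). The microRNA gene mir-4966-1 had 12 reads in each wild-type library and 0 in Tet-GFP, Tet CD and Tet null, at least 4.11-fold lower in Tet-GFP against a floor of 3 reads per library.

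lncRNA:CR40469 (X:122493-122706) was the most abundant of these genes. It had 636 and 1350 RPKM in Tet-GFP, against 25.7 and 65.5 RPKM in wild type (log2 fold change 4.48, SE 0.64, unadjusted p = 0.00235, adjusted p = 0.239, limma). Tet CD (1280 and 1030 RPKM) and Tet null (645 and 562 RPKM) were at the level of Tet-GFP. The wild-type level was low in wing discs as well, at 310, 246 and 248 RPKM, while wing discs of Tet null had 3184, 5565 and 3590 RPKM. A snoRNA gene on 2R (FBgn0263472, 2R:13557700-13557850), the highest of all by fold change, had the same order, with 58.9 and 147 RPKM in Tet-GFP, against 0.174 and 0.926 RPKM in wild type (1 and 5 reads), 51.9 and 66.4 RPKM in Tet CD and 28.2 and 40.1 RPKM in Tet null. A related snoRNA gene beside it had 25.6 and 87.6 RPKM in Tet-GFP and 7.50 and 15.2 RPKM in wild type, and reads of such related copies may not be told apart.

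Further genes grouped the lines in other ways. Dph1, of diphthamide synthesis, had 2.91 and 2.87 RPKM in Tet-GFP and 2.76 and 2.60 RPKM in Tet CD, against 12.8 and 21.1 RPKM in wild type and 10.0 and 10.6 RPKM in Tet null (log2 fold change −2.32, SE 0.29). The carboxylesterase alpha-Est2 had 3.39 and 4.06 RPKM in Tet-GFP, against 0.259 and 0.536 RPKM in wild type, 0.0685 and 0.220 RPKM in Tet CD and 1.29 and 1.06 RPKM in Tet null (log2 fold change 2.25, SE 0.23), so that Tet-GFP was above all others. EndoU, a ribonuclease that cuts at uridines, had 3.64 and 3.12 RPKM in Tet-GFP, against 0.545 and 0.272 RPKM in wild type, 0.331 and 0.129 RPKM in Tet CD and 2.12 and 1.60 RPKM in Tet null. asRNA:CR44030, antisense RNA annotated over fuss, had 59 and 78 reads in Tet-GFP and 0 in both wild-type libraries, at least 21.3-fold higher, with 0 in Tet CD and 1.76 and 1.92 RPKM in Tet null.

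**Figure D4:**
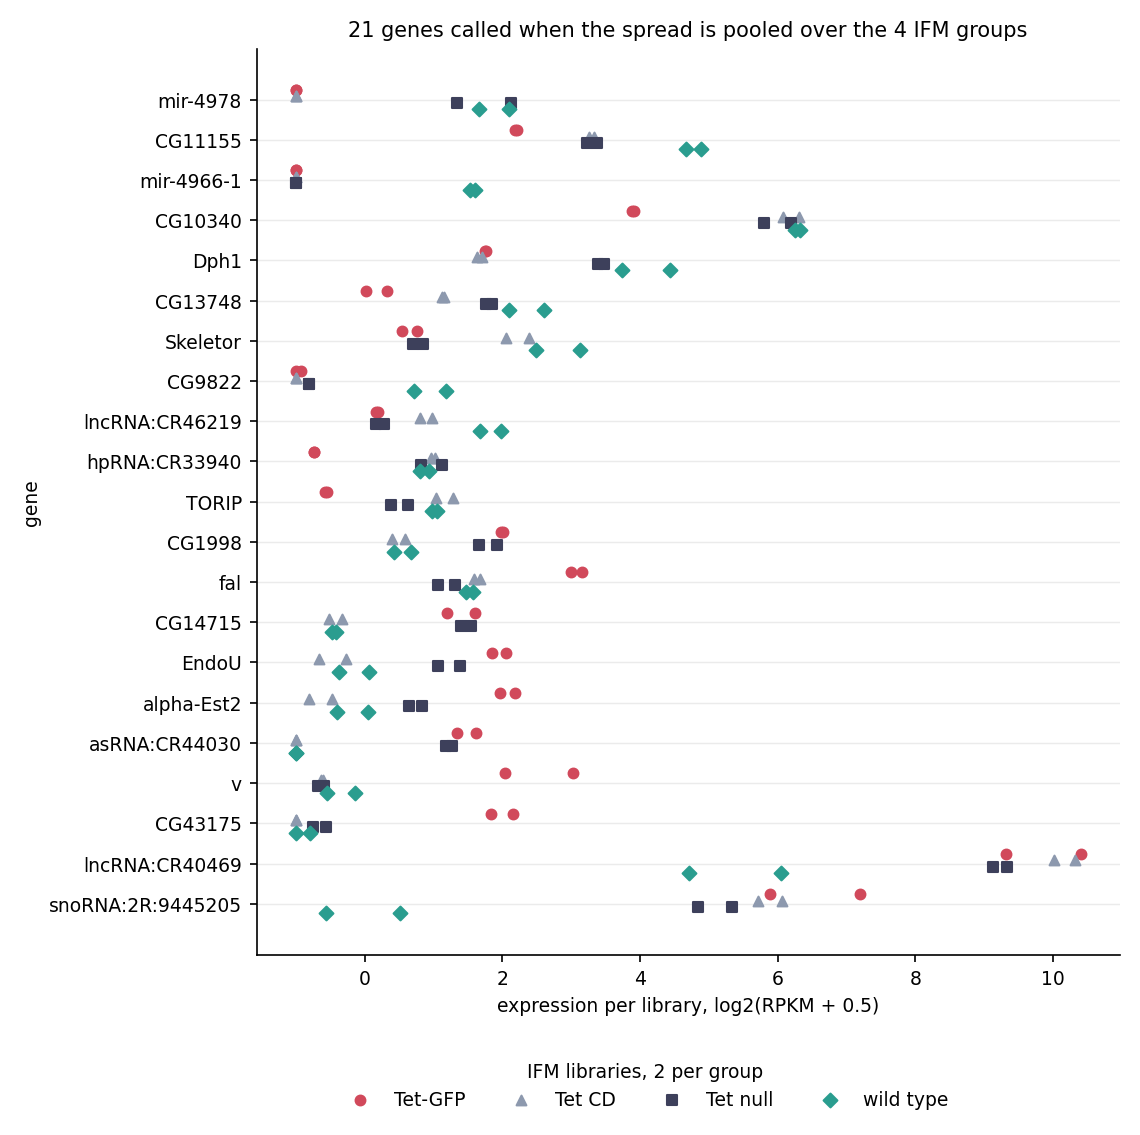
Log2(RPKM + 0.5) per IFM library (x axis) of the 21 genes called when the spread was pooled over the 4 groups (y axis), with 2 libraries each of Tet-GFP, Tet CD, Tet null and wild type. In CG10340, fal, v, CG43175 and hpRNA:CR33940 both Tet-GFP libraries stand apart from the other 6, and in CG11155, lncRNA:CR40469 and the snoRNA gene on 2R both wild-type libraries do.

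How often a line stood apart from the other 6 libraries was counted over all genes. Both Tet-GFP libraries were below the other 6 in 315 genes (3.86%) and above them in 516 (6.33%), and both wild-type libraries were below in 348 (4.27%) and above in 588 (7.21%). Of the 740 genes past the unadjusted limit, Tet-GFP was below the other 6 in 107 (14.5%) and above in 100 (13.5%), and wild type was below in 134 (18.1%) and above in 190 (25.7%). Among the 43 cuticle genes Tet-GFP was below the other 6 in 1 and wild type above them in 7. These genes were partly chosen by the same values, so the shares describe them and are not a test.

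The genes past the unadjusted limit lay on every chromosome arm. Of 7259 protein-coding genes tested 512 were past it (7.05%), with 5.43% on X, 6.69% on 2L, 8.09% on 2R, 7.81% on 3L, 6.76% on 3R and 11.6% (8 of 69) on chromosome 4. With a mean of at least 5 RPKM the shares were less even. They were 11.1% (52 of 470) on 3L, the arm of Tet, and 10.9% (5 of 46) on chromosome 4. On 2L the share was 7.27%, on 2R 6.94%, on 3R 5.76% and on X 3.31%. At this limit the share near Tet was not counted, and why the arms differed was not tested. Within 2 Mb of Tet, at the low-value limit of 0.5 RPKM, 22 of 280 genes were past the unadjusted limit (7.86%), close to the 7.05% of all. In 119 windows of 1 Mb with at least 15 genes the median share was 6.9% and the highest 21.2%, and that window, on 3R, holds the Osiris cluster and the Ccp84 cuticle genes. Some tight clusters carried many of the lower genes, and they were picked out after their values had been seen. From CG13051 to CG13046 on 3L, 8 of 13 tested genes were lower at the unadjusted limit, where 5.1% of all genes were. Among them was CG13047, with 86.7 and 188 RPKM in Tet-GFP and 1357 and 681 RPKM in wild type. From CG14095 to CG32213 on 3L, 6 of 6 were lower. In that cluster CG14095 had 11.3 and 48.5 RPKM in Tet-GFP, against 318 and 372 RPKM in wild type (log2 fold change −3.84, SE 0.76), and CG32214 had 2.54 and 2.01 RPKM in Tet-GFP, against 19.7 and 8.10 RPKM in wild type (log2 fold change −2.26, SE 0.48).

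Genes of the flight muscle itself had medians near 0, with single exceptions. The 23 contractile genes of IFM had a median log2 fold change of −0.03, with 1 higher (4.35%) and 0 lower, where 3.97% of all genes were higher. TpnC4, the stretch-sensitive troponin C, had 1925 and 2134 RPKM in Tet-GFP and 1332 and 1701 RPKM in wild type (log2 fold change 0.43, SE 0.21). The gene past the limit was fln, flightin of the thick filament, with 144 and 248 RPKM in Tet-GFP, against 86.2 and 73.1 RPKM in wild type (log2 fold change 1.24, SE 0.34, unadjusted p = 0.0220, adjusted p = 0.392, limma). Nuclear genes of oxidative phosphorylation had a median of 0.00 over 69 genes, with 0 higher and 1 lower. Of 7 genes of tubular muscle, the type found in the leg and jump muscles, 2 were lower at the unadjusted limit (5.1% of all genes). The list median was −0.42, and it ran from −0.77 to −0.01 with each library left out. On average 5 of the 7 were below wild type and 2 above it. Those above were the actin gene Act79B (log2 fold change 0.27, SE 0.77) and TpnC41C (log2 fold change 0.41, SE 0.56), and both overlapped between the lines. Mp20 had 11.2 and 14.3 RPKM in Tet-GFP, against 27.0 and 27.7 RPKM in wild type (log2 fold change −1.08, SE 0.21), and Act57B had 50.9 and 55.2 RPKM, against 83.4 and 108 RPKM (log2 fold change −0.83, SE 0.22).

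Genes of the cytosolic ribosome were lower by a small and even amount. The median log2 fold change was −0.32 over 85 genes, 64 of them below wild type without overlap, where 22.4% of all genes were. At the unadjusted limit 5 were lower (5.88%), near the 5.1% of all genes. RpS12 had 200 and 198 RPKM in Tet-GFP, against 293 and 330 RPKM in wild type (log2 fold change −0.64, SE 0.18), and RpS2 had 112 and 104 RPKM, against 166 and 161 RPKM (log2 fold change −0.60, SE 0.18). In Tet CD and Tet null, RpS2 had between 100 and 134 RPKM, so that the wild type was the line apart. The 72 genes of the mitochondrial ribosome had a median of −0.10, with 2 higher (2.78%) and 3 lower (4.17%), below the 3.97% and 5.1% of all genes. Of these, mRpL55 had 41.0 and 48.1 RPKM in Tet-GFP, against 97.6 and 88.4 RPKM in wild type (log2 fold change −1.06, SE 0.20), and mRpS21 had 22.4 and 31.9 RPKM, against 8.43 and 14.2 RPKM (log2 fold change 1.25, SE 0.35).

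**Figure D5:**
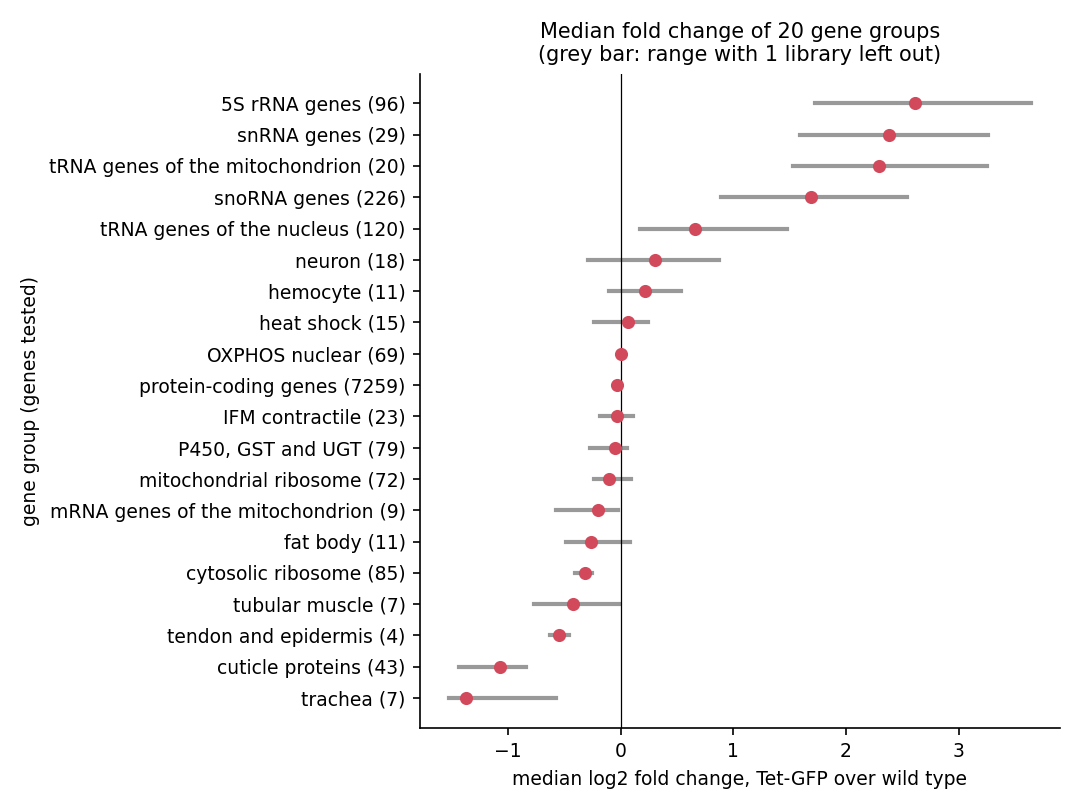
Median log2 fold change of Tet-GFP over wild type (x axis) in 20 gene groups (y axis, genes tested in parentheses), with a grey bar for the range when each library was left out in turn. The medians run from −1.37 for tracheal genes to 2.61 for 5S rRNA genes, and the bars of the neuron, hemocyte, heat shock, IFM contractile, P450, mitochondrial ribosome and fat body groups span 0.

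Markers of other cells in the thorax were measured beside these groups, and their part in the differences was not tested. The 18 neuronal genes tested had a median log2 fold change of 0.31, with 0 past the limit. Without Tet-GFP 3 it was −0.29. Snap25, of the synaptic fusion machinery, had 2.203 and 6.09 RPKM in Tet-GFP and 1.29 and 1.25 RPKM in wild type, and nSyb had 1.30 and 6.64 RPKM in Tet-GFP and 1.79 and 1.61 RPKM in wild type, so that Tet-GFP 3 was the highest library for both, and Tet-GFP 1 was above wild type for Snap25 and below it for nSyb. The pan-neuronal elav did not share this, with 1.73 and 1.78 RPKM in Tet-GFP and 1.40 and 1.45 RPKM in wild type. The 11 fat body genes had a median of −0.26 (0.08 without wild-type 2), and the summed level was 114 RPKM in each Tet-GFP library, against 105 and 177 RPKM in wild type. Lsp1beta, a storage protein, had 7.86 and 7.07 RPKM in Tet-GFP, against 14.7 and 35.5 RPKM in wild type (log2 fold change −1.55, SE 0.48). Hemocyte genes had a median of 0.22 over 11 (−0.10 without wild-type 1), with Hml, hemolectin, at 8.93 and 6.52 RPKM in Tet-GFP and 4.42 and 4.36 RPKM in wild type (log2 fold change 0.73, SE 0.22). Of the glial list, which had a median of −0.01 over 11 genes, axo, axotactin, a neurexin-related glial protein, was past the limit, with 4.31 and 2.22 RPKM in Tet-GFP and 0.524 and 0.704 RPKM in wild type (log2 fold change 1.71, SE 0.34). Cyp4g1, of the oenocytes, had 33.7 and 2 RPKM in Tet-GFP and 2.39 and 3.16 RPKM in wild type, high in Tet-GFP 1 only.

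Detoxification genes differed in both directions. Over 79 P450, GST and UGT genes the median log2 fold change was −0.05, with 7 higher (8.86%) and 7 lower (8.86%) at the unadjusted limit, where 3.97% of all genes were higher and 5.1% lower. Cyp6a2 had 7.28 and 2.69 RPKM in Tet-GFP, against 0.299 and 0.184 RPKM in wild type (log2 fold change 2.75, SE 0.49, unadjusted p = 0.00526, adjusted p = 0.287, limma), and 0.113 to 0.560 RPKM in Tet CD and Tet null. Cyp6a9 had 2.14 and 1.46 RPKM in Tet-GFP, against 0.0939 and 0.214 RPKM in wild type (log2 fold change 1.80, SE 0.25). On the lower side were Cyp4s3, with 4.64 and 3.81 RPKM in Tet-GFP, against 9.24 and 11 RPKM in wild type (log2 fold change −1.17, SE 0.20), and GstE1, with 1.81 and 1.74 RPKM, against 5.80 and 3.90 RPKM (log2 fold change −1.21, SE 0.24).

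Among genes listed for natural polymorphism, pst had 4.38 and 3.73 RPKM in Tet-GFP, against 14.7 and 11.9 RPKM in wild type (log2 fold change −1.59, SE 0.20, unadjusted p = 0.00157, adjusted p = 0.205, limma). Natural alleles of this gene set resistance to Drosophila C virus, and it had 5.62 and 4.97 RPKM in Tet CD and 43.5 and 38.7 RPKM in Tet null. It was the only one of 15 tested genes of that list past the limit (6.67%, where 9.07% of all genes were). Heat shock genes had a median of 0.07 over 15, with 0 higher and 0 lower. Of the clock genes vri was past the limit, with 1.36 and 1.16 RPKM in Tet-GFP and 0.662 and 0.573 RPKM in wild type (log2 fold change 0.65, SE 0.18), while per had 0.275 and 0.418 RPKM in Tet-GFP and 0.396 and 0.371 RPKM in wild type. Of the genes that the study discusses for the Tet null muscle, 13 were tested and 1 was past the limit (7.69%, where 9.07% of all genes were). It was Sply, sphingosine-1-phosphate lyase, with 3.46 and 2.95 RPKM in Tet-GFP, against 8.44 and 7.09 RPKM in wild type. The X-chromosomal dosage RNA roX1, which is made in males, had 16.8 and 22.6 RPKM in Tet-GFP and 16.7 and 31.8 RPKM in wild type, and the yolk protein genes Yp1 to Yp3, made in adult females, did not exceed 0.236 RPKM in any of the 4 libraries.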

How the data were processed

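RNA was taken from IFM of pupae at 96 h APF, with 2 libraries per line. Per the labels, the authors used Trimmomatic 0.32, HISAT2 2.1.0, HTSeq 0.11.2, Cufflinks 2.2.1 and DESeq2 1.22.2 with the dm6 build, and the study's methods name Cutadapt for trimming. The strand setting of the counting is not given in the sources used here. The authors deposited RPKM values with decimal commas, which were replaced by points. Reads were estimated as RPKM times exon length (Ensembl release 115) times a scale per library. Of values under 1000 reads, 99.5 to 99.6% came within 0.05 of a whole number. Columns of Tet-GFP are numbered 1 and 3 while the labels number the samples otherwise, so columns were assigned to the group and not to a sample.

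Values of log2(RPKM + 0.5) were fitted by lmFit of limma 3.58.1 (R 4.3.3), and eBayes was run with a trend, over genes with a mean of at least 0.5 RPKM in the 4 libraries, with Benjamini-Hochberg adjustment. Fold changes are Tet-GFP over wild type on this scale, which understates changes of low genes. A call needed a fold change over 1.5 and an adjusted p under 0.05. The procedure was tested on simulated data. Genes named are Tet, the 12 largest rises and 12 largest falls at an unadjusted p under 0.05 without overlap, and members of 32 gene lists and 10 classes. Further genes, such as those called with the pooled spread, were chosen after their values were seen. The members and lists were chosen with earlier results of these data known. Counts are not adjusted for the lists. Alternatives were other constants (0.1 and 1), low-value limits (none, 1 and 5 RPKM), median-ratio scaling, no trend, a test against the fold limit, all 4 IFM groups in a single fit, each library left out and, added after seeing the data, voom. No sequences or genome tables were used. The authors' own fold changes were not used.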

Additional observations from a re-analysis of the deposited data

How the results depend on the processing

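No paired analysis was possible because the columns of the Tet-GFP (1 and 3) and wild-type (1 and 2) libraries share a single number, and no source says that it marks a common batch.

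The count of called genes was 0 in either direction under other constants, limits, scaling, no trend and the test against the fold limit. It was 0 also with each library left out, which says nothing about stability, since the spread then comes from the other line alone (smallest adjusted p 0.189 to 0.549, limma). The counts became 10 higher and 11 lower with all 4 IFM groups in a single fit, and 6 lower with voom on recovered reads. At the unadjusted limit, 132 were higher and 131 lower with a mean of at least 5 RPKM, and 193 were higher with voom. Leaving out each library moved the higher count between 151 and 557 and the lower count between 305 and 453. The fold changes of 99 genes kept their side of 0 in 1336 of 1336 alternative values, and 27 of these passed the threshold. Many of these genes were named because their groups did not overlap, or because they were called in an alternative. Both counts were therefore largely set in advance and say little about stability.

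Among the alternative medians of 20 gene groups, 24 moved by more than the spread between replicates and 234 did not. Tracheal genes had −1.10 with a constant of 1, tendon and epidermis genes −0.72 with 0.1, −0.18 without a limit and −0.82 with voom. Cuticle genes had −0.16 without a limit, which added genes near 0. OXPHOS genes had 0.00 without a limit, 0.05 with median-ratio scaling and −0.04 with voom. Nuclear tRNA genes had −0.24 at 5 RPKM, and protein-coding genes −0.07 at 5 RPKM, 0.00 with median-ratio scaling and −0.08 with voom.

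With each library left out, medians ran from −0.18 to 0.11 for IFM contractile, −0.29 to 0.87 for neuron, −1.52 to −0.57 for trachea, 0.00 to 0.02 for OXPHOS, 0.17 to 1.48 for nuclear tRNA, 1.53 to 3.25 for mitochondrial tRNA and −0.06 to 0.00 for protein-coding genes. The cause of these shifts was not tested. With 2 libraries per line, 1 of them with 33.3 M reads, small changes may not be detectable.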
